A study of Mus musculus with 9 samples.

Results

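Genes that mark the epithelium and the mucus layer of the colon were read in RNA of macrophages sorted from the tissue under that epithelium. The set was a list of 39 symbols among 42454 genes in the table, covering goblet cell products, membrane mucins, junction and keratin genes, transporters, brush border genes, transcription factors and an enteroendocrine marker. Fcgbp, Muc3 and Aqp4 had been singled out from their values across the 9 libraries, so they are described here without a test. The other 36 symbols are epithelial genes chosen with earlier results of these data known.

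The series, on reactive oxygen species in the development of gut macrophages, compared 3 genotypes of mice at 6 weeks of age, with 3 libraries each. These were gp91phox-/- (lacking the membrane-bound catalytic subunit of the phagocyte NADPH oxidase), p47phox-/- (lacking its cytosolic organiser) and WT. Cells were sorted from the colon lamina propria as Ly6C low and positive for MHC class II, and the labels name no treatment. Strain background, sex, the number of animals per library and whether libraries came from separate animals are not stated in the sources at hand, so the spread between libraries may be partly technical. The libraries held 31141107 to 52797368 reads on genes. Values are normalized counts, that is reads divided by a size factor for each library, and 1 read was worth 0.603 to 0.953 normalized counts. All 18 macrophage markers examined had at least 10 normalized counts in every library, as the labelled cell type would have. Of the targeted genes, Ncf1 (p47phox) had 13617, 12136 and 13365 normalized counts in gp91phox-/- replicates 1, 2 and 3, 2718, 3733 and 3133 in p47phox-/- and 10066, 8989.8 and 10815 in WT. Cybb (gp91phox) lies on chromosome X, and all 1139 genes of that chromosome in the table were listed at 0 in all 9 libraries, so it checks nothing.

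The colon epithelium is a single layer of absorptive colonocytes, mucus-secreting goblet cells, hormone-secreting enteroendocrine cells and their stem cells. Goblet cells release the gel-forming mucin MUC2 together with partner proteins such as FCGBP, CLCA1 and ZG16, which build the layer that keeps bacteria from the cell surface. Colonocytes carry membrane mucins, water channels, ion exchangers and a brush border, and lamina propria macrophages lie directly beneath them. In a sorted bulk sample, more epithelial cells or debris and more RNA per cell cannot be told apart.

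The start regions of 4 genes are shown because 2 of them were singled out for their values and the other 2 differed between the knockouts. Each runs from 250 bases before to 50 bases after the gene start of RefSeq on GRCm38.p6, and the table of start regions held 30 of the 39 members. Capitals mark 3 short motifs found by letter search on both strands, TTTATG for CDX factors, AGGTCA for half-sites of nuclear receptors and GAGGAA for the myeloid factor PU.1.
Fcgbp (chr7:28070986-28071285, plus strand): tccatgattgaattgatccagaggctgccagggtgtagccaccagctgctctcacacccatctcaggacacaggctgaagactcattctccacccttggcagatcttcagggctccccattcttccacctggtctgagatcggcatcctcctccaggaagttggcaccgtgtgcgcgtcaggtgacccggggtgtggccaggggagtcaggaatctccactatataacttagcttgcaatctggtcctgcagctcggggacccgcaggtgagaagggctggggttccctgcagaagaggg
Muc3 (chr5:137165997-137166296, minus strand): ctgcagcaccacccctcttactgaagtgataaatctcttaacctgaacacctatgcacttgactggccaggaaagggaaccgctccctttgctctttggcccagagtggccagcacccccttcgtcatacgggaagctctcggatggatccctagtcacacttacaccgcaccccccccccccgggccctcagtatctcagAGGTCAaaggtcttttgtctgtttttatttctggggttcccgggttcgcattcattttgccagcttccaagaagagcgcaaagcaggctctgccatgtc
Slc26a3 (chr12:31437969-31438268, plus strand): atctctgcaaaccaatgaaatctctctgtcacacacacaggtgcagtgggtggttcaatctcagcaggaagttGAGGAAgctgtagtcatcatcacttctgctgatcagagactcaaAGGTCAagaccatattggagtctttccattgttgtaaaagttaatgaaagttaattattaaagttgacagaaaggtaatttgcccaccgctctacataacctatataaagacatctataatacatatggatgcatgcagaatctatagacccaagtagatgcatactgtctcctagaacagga
Krt20 (chr11:99438104-99438403, minus strand): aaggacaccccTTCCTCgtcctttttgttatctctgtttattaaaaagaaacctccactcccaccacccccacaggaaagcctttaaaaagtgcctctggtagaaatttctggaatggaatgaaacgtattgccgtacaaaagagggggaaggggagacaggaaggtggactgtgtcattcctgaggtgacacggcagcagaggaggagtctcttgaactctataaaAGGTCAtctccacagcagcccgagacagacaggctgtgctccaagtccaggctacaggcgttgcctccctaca

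None of the 3 motifs stood in the Fcgbp region. The AGGTCA motif stood in those of Muc3, Slc26a3 and Krt20, in 12 of the 30 member regions and in 16.0% of all 27025 start regions. GAGGAA stood in the regions of Slc26a3 and Krt20, in 11 of the 30 member regions and in 28.3% of all. TTTATG was in 6 member regions and 12.1% of all. A match is a description of these letters and was not tied to binding. The Muc3 region belongs to the RefSeq gene model, which starts 16724 bases upstream of the GENCODE vM21 model (GRCm38, chromosome 5, 137134922 to 137149322, minus strand). The Slc26a3 region lies inside the GENCODE gene model (chromosome 12, 31390871 to 31473917, plus strand), with its RefSeq start 47348 bases downstream of the start of that model.

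The summed signal of the members was small beside the macrophage signal and was present in every library. Over the 39 genes, it was 5651 to 12163 normalized counts in gp91phox-/- libraries, 3159 to 7129 in p47phox-/- libraries and 4460.02 to 9019 in WT libraries. It includes Ceacam1 (325 to 1563 over all libraries), which immune cells also carry, and Cdh1, which some macrophages also make. The 18 macrophage markers summed to 1156276 to 1359533 in gp91phox-/-, 1034266 to 1365632 in p47phox-/- and 910500.2 to 1179837 in WT. As a share of all reads on genes, the members took 0.0398% in gp91phox-/- replicate 1, the highest library (95% Wilson interval 0.0391 to 0.0405%), and 0.0109% in p47phox-/- replicate 1, the lowest (0.0106 to 0.0113%). These intervals cover counting error only. The 3 genotypes overlapped in this sum, and 25 of the 39 members had their highest value in gp91phox-/- replicate 1.

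Per kilobase of exon, averaged over the 9 libraries, the members had a median of 46.97 normalized counts (Muc3 left out, because its gene model may be incomplete). The highest levels per kilobase were those of Car1 (378), a cytosolic carbonic anhydrase of colonocytes, Krt8 (348), a keratin of simple epithelia, and its partner family member Krt19 (229). The lowest were those of Muc4 (1.16) and the enteroendocrine granule protein Chga (1.18). Among the macrophage markers, the lowest level per kilobase was 697 for Mertk, a receptor for dying cells, and the highest 145143 for Lyz2, lysozyme. Each member thus lay below each macrophage marker on this scale.

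**Figure D1:**
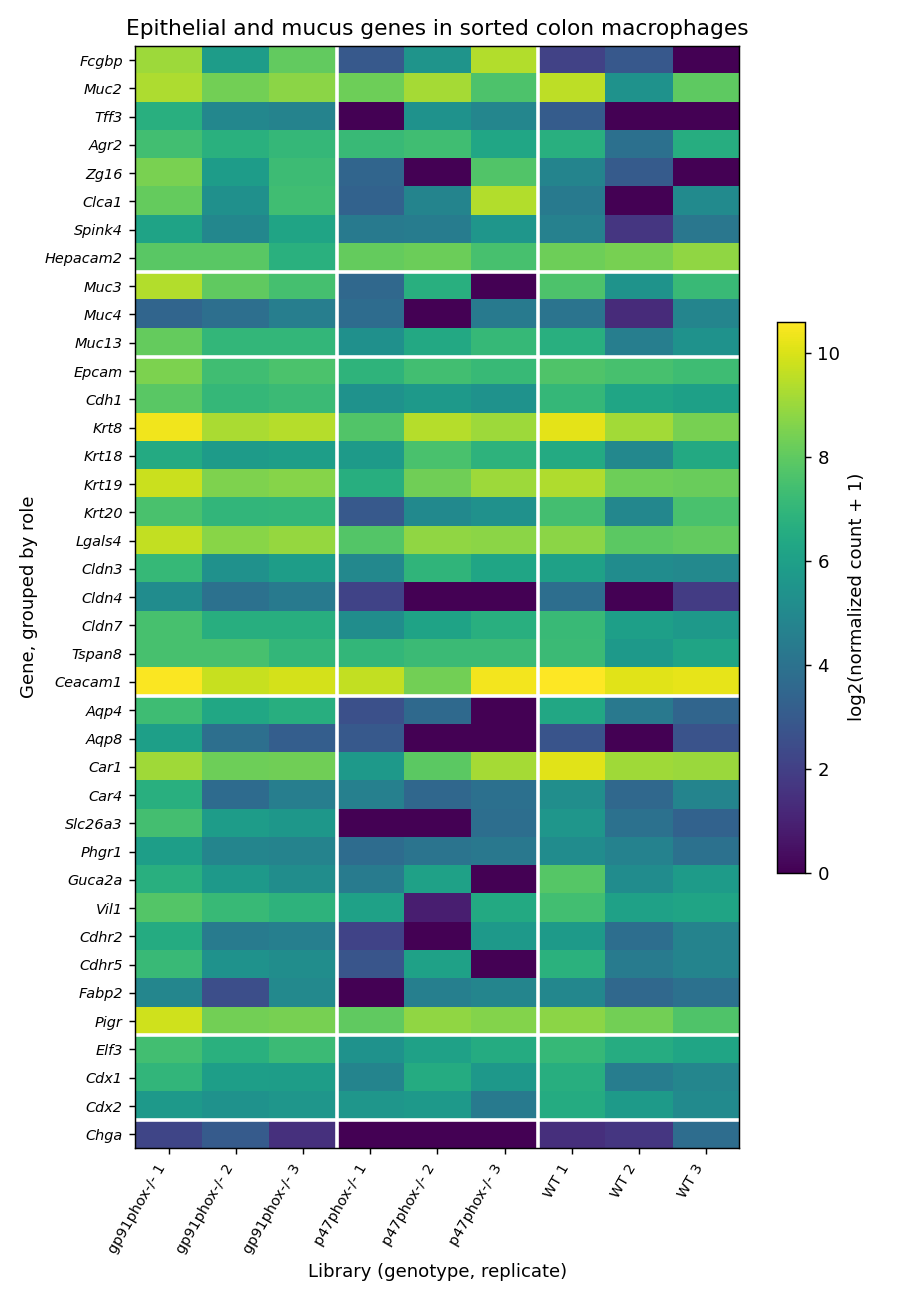
Each row is 1 of the 39 genes, grouped by role, and each column 1 library, with colour giving log2(normalized count + 1). Krt8, Lgals4, Pigr and Epcam are present throughout, whereas Fcgbp ranges from 0 to 667, Muc3 from 0 to 677 and Aqp4 from 0 to 159 normalized counts.

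Detection differed between libraries. Of the 39 members, 0 were listed at 0 in each gp91phox-/- library, 4, 7 and 7 in p47phox-/- replicates 1, 2 and 3, and 0, 4 and 3 in WT replicates 1, 2 and 3. Of all 132 epithelial genes examined (the members and 93 further genes), 8, 8 and 18 were at 0 in gp91phox-/- replicates 1, 2 and 3, 29, 56 and 54 in p47phox-/- and 24, 29 and 37 in WT. The number of genes in the whole table with at least 1 read was 18115 to 18760 in gp91phox-/-, 17754, 14323 and 14268 in p47phox-/- and 15825 to 17280 in WT. With at least 10 normalized counts it was 13349 to 13407 in gp91phox-/-, 13985, 13975 and 13894 in p47phox-/- and 13707 to 13770 in WT. In p47phox-/- replicates 2 and 3, few genes thus had a read but fewer than 10 normalized counts. The 2 libraries with the fewest detected genes, p47phox-/- replicates 2 and 3, thus also had the most epithelial genes at 0, and the part of detection in the results below was not tested. A value of 0 allows up to 3 reads, or 1.81 to 2.73 normalized counts in gp91phox-/- libraries, 2.52 to 2.86 in p47phox-/- libraries and 2.20 to 2.74 in WT libraries, for counting error only.

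**Figure D2:**
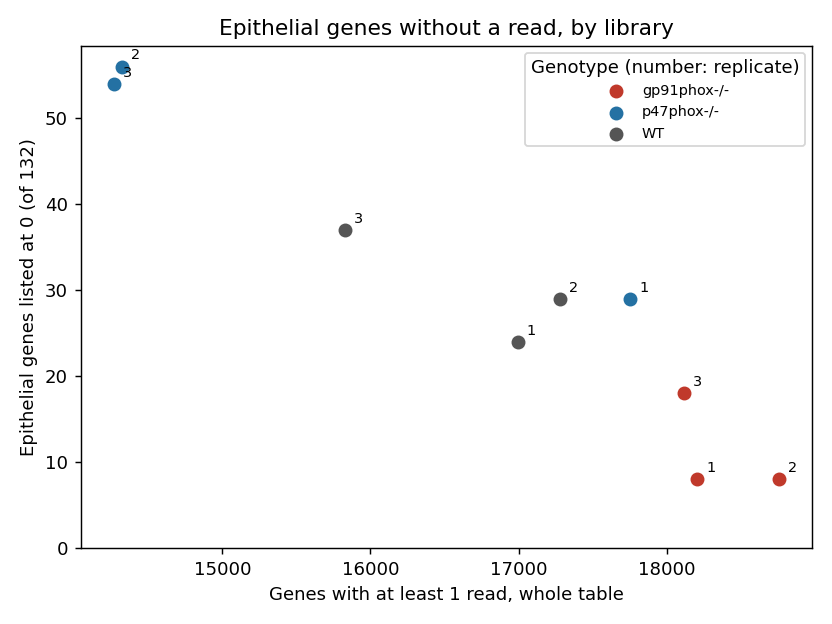
Each point is 1 library, with the genes of the whole table that had a read on the horizontal axis and the epithelial genes listed at 0, of 132, on the vertical axis. The gp91phox-/- libraries lie at the lower right (8 to 18 genes at 0) and p47phox-/- replicates 2 and 3 at the upper left (56 and 54).

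Fcgbp, the IgG Fc binding protein of goblet cell mucus (GRCm38, chromosome 7, 28071236 to 28120862, plus strand, protein-coding), was close to 0 in WT and high in some knockout libraries. It had 535, 57.9 and 268 normalized counts in gp91phox-/- replicates 1, 2 and 3, 6.71, 43.96 and 667 in p47phox-/- and 3.31, 6.61 and 0 in WT. All gp91phox-/- libraries were above WT, whereas p47phox-/- ran across the whole range, with replicate 3 the highest of the 9 and replicate 1 0.106 normalized counts above the highest WT library. The mean was 287 ± 239 in gp91phox-/-, 239 ± 371 in p47phox-/- and 3.31 ± 3.3 in WT (SD, n = 3 each). The fitted log2 fold change, on the log2(normalized count + 1) scale, was 5.99 for gp91phox-/- against WT and 4.26 for p47phox-/- against WT, comparisons that share the WT libraries. A neighbouring gene that RefSeq lists with FCGBP as a synonym, 9530053A07Rik, was listed at 0 in all 9 libraries.

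Muc3, a membrane mucin of the colonocyte surface, had 677, 259 and 175 normalized counts in gp91phox-/- replicates 1, 2 and 3, 10.9, 102 and 0 in p47phox-/- and 201, 43.3 and 146 in WT. The gp91phox-/- libraries were all above the p47phox-/- libraries, and WT lay between, overlapping both. Muc3, Cldn3, Cldn4 and Cdx2 lie on chromosome 5, as does Ncf1, the gene targeted in p47phox-/-, and any part of this in their values was not tested. Means were 371 ± 269 in gp91phox-/-, 37.6 ± 56.00 in p47phox-/- and 130.1 ± 79.9 in WT (SD, n = 3 each). The log2 fold change was 4.88 for gp91phox-/- against p47phox-/-, 1.52 for gp91phox-/- against WT and -3.36 for p47phox-/- against WT. The related gene Muc3a was at 6.26 to 17.3 in gp91phox-/-, 11.4 to 18.5 in p47phox-/- and 10.97 to 19.1 in WT, and reads that fit both genes are uncertain.

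Aqp4, a water channel of the basolateral membrane (GRCm38, chromosome 18, 15389496 to 15410982, minus strand, protein-coding), had 159, 79.6 and 99.3 normalized counts in gp91phox-/- replicates 1, 2 and 3, 5.04, 11.4 and 0 in p47phox-/- and 80.4, 18.4 and 10.1 in WT. Each gp91phox-/- library was above each p47phox-/- library, and WT replicate 1 (80.4) was just above gp91phox-/- replicate 2 (79.6). Means were 113 ± 41.5 in gp91phox-/-, 5.49 ± 5.73 in p47phox-/- and 36.3 ± 38.4 in WT (SD, n = 3 each). The log2 fold change was 4.69 for gp91phox-/- against p47phox-/-, 2.07 for gp91phox-/- against WT and -2.62 for p47phox-/- against WT. Astrocytes of the brain also make Aqp4, and the 10 enteric glia and neuron markers examined had summed levels of 174 to 268 in gp91phox-/-, 263 to 317 in p47phox-/- and 319 to 455 in WT.

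**Figure D3:**
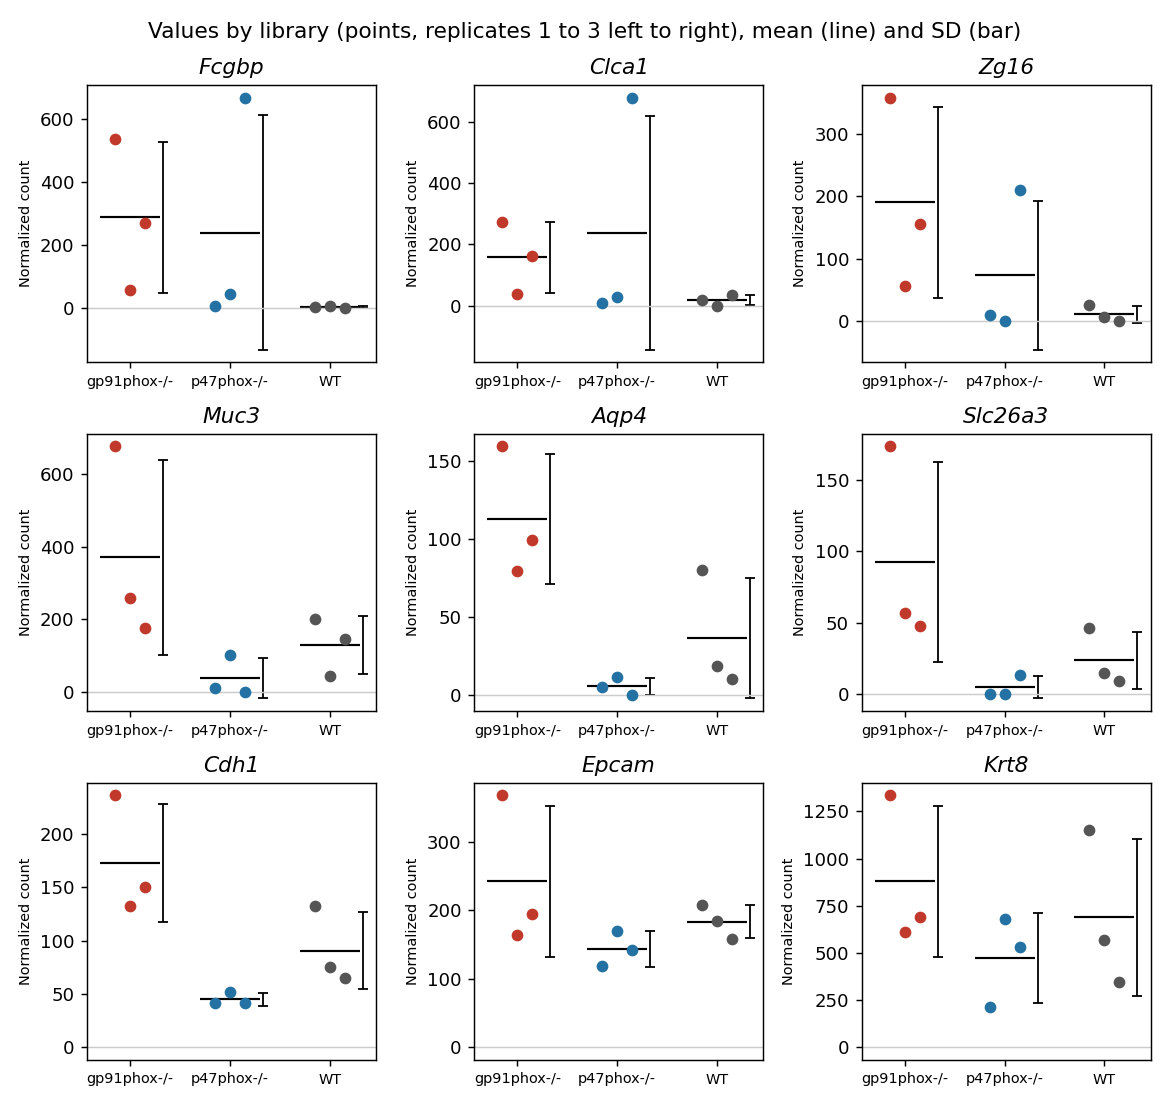
Normalized counts of 9 genes by genotype, with a point for each library, a line at the mean and a bar for the SD beside it (n = 3 each). Fcgbp, Clca1 and Zg16 are highest in gp91phox-/- replicates 1 and 3 and p47phox-/- replicate 3, and Epcam stays within 118 to 368 in all 9 libraries. Muc3, Aqp4, Slc26a3 and Cdh1 have their lowest genotype mean in p47phox-/-. Of these, Muc3, Aqp4 and Slc26a3 overlap between p47phox-/- and WT, and Cdh1 does not.

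The 3 genes were set against Epcam, the adhesion protein of all gut epithelial cells. Epcam had 368, 164 and 194 normalized counts in gp91phox-/- replicates 1, 2 and 3, 118, 169.7 and 142 in p47phox-/- and 207, 184 and 158 in WT. Its highest library was 3.11 times its lowest. Epcam had the smallest SD of log2 values within genotypes among the members that passed the filter (0.40). A wider range than that of Epcam is therefore not particular to the 3 genes. That SD was 1.41 for Aqp4, below 2.74 for Zg16 and 2.56 for Clca1. Fcgbp was 146, 35.3 and 138% of Epcam in gp91phox-/- replicates 1, 2 and 3, 5.67, 25.9 and 469.8% in p47phox-/- and 1.60, 3.59 and 0% in WT. Muc3 was 184, 158 and 90.3% of Epcam in gp91phox-/-, 9.22, 60.1 and 0% in p47phox-/- and 96.8, 23.5 and 92.5% in WT. Aqp4 was 43.3, 48.5 and 51.2% of Epcam in gp91phox-/-, 4.26, 6.74 and 0% in p47phox-/- and 38.8, 9.96 and 6.36% in WT. Relative to Epcam, Aqp4 was therefore nearly level among the gp91phox-/- libraries and lower in each of the other 6.

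The goblet cell genes did not share 1 pattern across libraries. Muc2, the gel-forming mucin, had 627, 328 and 440.1 in gp91phox-/-, 311, 579 and 201 in p47phox-/- and 743, 41.1 and 249 in WT. Agr2, a disulfide isomerase needed for mucin folding, had 169, 107 and 134 in gp91phox-/-, 144, 164 and 77.2 in p47phox-/- and 102, 13.95 and 96.01 in WT. Both were present in all 9 libraries and were lowest in WT replicate 2. Clca1, a secreted protease of mucus, had 271, 38.6 and 161 in gp91phox-/-, 9.23, 26.4 and 678 in p47phox-/- and 19.1, 0 and 32.9 in WT. Zg16, a mucus lectin that binds gram-positive bacteria, had 358, 57.3 and 156 in gp91phox-/-, 10.1, 0 and 211 in p47phox-/- and 26.5, 7.34 and 0 in WT. For Clca1 and Zg16, as for Fcgbp, gp91phox-/- replicates 1 and 3 and p47phox-/- replicate 3 were the highest 3 libraries. Fcgbp was 85.3, 17.6 and 61.0% of Muc2 in gp91phox-/-, 2.16, 7.59 and 332% in p47phox-/- and 0.446, 16.1 and 0% in WT. In p47phox-/- replicate 3 Clca1 was 337% of Muc2 and Zg16 105%, against at most 4.55 and 3.23% in the other p47phox-/- libraries.

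Tff3, a trefoil peptide of goblet cells, had 104, 28.96 and 25.9 in gp91phox-/-, 0, 41.3 and 28.6 in p47phox-/- and 7.46, 0 and 0 in WT. Spink4, a protease inhibitor secreted with mucus, had 70.1, 28.96 and 72.5 in gp91phox-/-, 19.3, 21.1 and 46.7 in p47phox-/- and 24.03, 2.2 and 17.4 in WT. For 5 of the 7 goblet cell genes tested (Fcgbp apart) all gp91phox-/- libraries were above WT, namely Tff3, Agr2, Zg16, Clca1 and Spink4. The share over all genes tested was 15.1%. The gap was narrow for Agr2 (lowest gp91phox-/- library 107, highest WT library 102) and Clca1 (38.6 and 32.9). Hepacam2, an adhesion molecule of the immunoglobulin superfamily, had 235, 238 and 105 in gp91phox-/-, 273, 296 and 182 in p47phox-/- and 311, 343 and 464 in WT. It ran the other way, with each gp91phox-/- and each p47phox-/- library below each WT library. None of the 7 goblet cell genes tested (Fcgbp apart) was called in any of the 3 comparisons (limma, Benjamini-Hochberg adjusted p of 0.0893 for Tff3, 0.091 for Hepacam2, 0.125 for Zg16, 0.12 for Spink4 and 0.17 for Clca1 in gp91phox-/- against WT). The 95% interval of the log2 fold change in that comparison was 1.31 to 7.55 for Tff3 and 0.99 to 8.22 for Zg16, both of them wide. Tff3 passed the filter of 10 normalized counts in 3 libraries only through gp91phox-/-, where it is high, so the calls it had in gp91phox-/- against WT with only those genotypes fitted (adjusted p = 0.0226), without p47phox-/- replicate 1 (adjusted p = 0.0232), without p47phox-/- replicates 2 and 3 (adjusted p = 0.0300) and in DESeq2 are no support. The same holds for Zg16 with only those genotypes fitted (adjusted p = 0.0278) and without p47phox-/- replicates 2 and 3 (adjusted p = 0.0294), and it was also called without p47phox-/- replicate 2 alone (adjusted p = 0.0419).

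Of the other membrane mucins, Muc13 had 277, 131 and 129.7 in gp91phox-/-, 38.6, 84.4 and 138 in p47phox-/- and 104, 22.03 and 41.1 in WT. The gp91phox-/- libraries did not overlap WT, but Muc13 was not called (log2 fold change 1.85, adjusted p = 0.0866 in limma). Muc4 had 10.01, 13.9 and 22.4 in gp91phox-/-, 12.6, 0 and 19.1 in p47phox-/- and 15.7, 1.47 and 27.4 in WT. It was near the level of a few reads in several libraries, and its groups overlapped.

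Among adhesion, junction and keratin genes, Cdh1 was the member that differed most clearly between the knockouts. Cdh1, E-cadherin of the adherens junction, had 237, 133 and 150.3 normalized counts in gp91phox-/- replicates 1, 2 and 3, 41.1, 51.9 and 41.9 in p47phox-/- and 133, 74.9 and 64.9 in WT. Each gp91phox-/- library was above each p47phox-/- library, and WT lay between, with the highest WT library 0.154 normalized counts below the lowest gp91phox-/- library. The mean was 173 ± 55.6 in gp91phox-/-, 44.97 ± 5.99 in p47phox-/- and 90.8 ± 36.5 in WT (SD, n = 3 each). Cdh1 was higher in gp91phox-/- than in p47phox-/- (log2 fold change 1.88, SE 0.37, limma adjusted p = 0.00805), and was called against WT in neither knockout (adjusted p = 0.16 and 0.267 in gp91phox-/- and p47phox-/-). The call held without each library in turn and was lost without p47phox-/- replicates 2 and 3 together (adjusted p = 0.0622), a fit that leaves 1 p47phox-/- library and takes the spread from the other genotypes. E-cadherin is also made by some macrophages and dendritic cells.

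Krt20, a keratin of differentiated surface colonocytes, had 186, 127 and 131 in gp91phox-/-, 6.71, 31.7 and 40.01 in p47phox-/- and 174, 29.4 and 190.2 in WT. Each gp91phox-/- library was above each p47phox-/- library, and WT replicate 2 lay within the p47phox-/- range. It was higher in gp91phox-/- than in p47phox-/- (log2 fold change 2.75, SE 0.74, limma adjusted p = 0.0359). The call was lost without any 1 of the gp91phox-/- libraries, without p47phox-/- replicate 1, with no filter and with no mean-variance trend (adjusted p up to 0.110). Without p47phox-/- replicates 2 and 3 the adjusted p was 0.0368, with replicate 1, the lowest of the 9 libraries, as the 1 p47phox-/- library left and the spread taken from the other genotypes.

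The other keratins and most junction genes had a read in every library. Krt8 had 1336, 609 and 691 in gp91phox-/-, 212, 679.6 and 533 in p47phox-/- and 1153, 568 and 347 in WT. Krt18, its partner keratin, had 88.3, 54.9 and 60.8 in gp91phox-/-, 54.6, 189.9 and 116 in p47phox-/- and 87.8, 30.1 and 86.9 in WT. Krt19 had 865, 371 and 409 in gp91phox-/-, 99.9, 313 and 524 in p47phox-/- and 648, 311 and 287 in WT. For all 3 the genotypes overlapped, and p47phox-/- replicate 1 was the lowest library for Krt8 and Krt19. Cldn3, a sealing claudin of tight junctions, had 136, 40.4 and 59.04 in gp91phox-/-, 30.2, 121 and 74.3 in p47phox-/- and 67.1, 34.5 and 31.1 in WT. Cldn4, another claudin, had 34.6, 14.5 and 19.7 in gp91phox-/-, 3.36, 0 and 0 in p47phox-/- and 13.3, 0 and 2.74 in WT. Cldn7, a claudin of the basolateral membrane, had 183, 99.6 and 99.3 in gp91phox-/-, 36.1, 70.3 and 103 in p47phox-/- and 146, 63.1 and 53.03 in WT. For Cldn4 the 3 gp91phox-/- libraries were above the other 6, and it was not called against p47phox-/- (log2 fold change 3.78, limma adjusted p = 0.0894).

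Lgals4, a galectin of the gut epithelium, had 786, 424 and 486 in gp91phox-/-, 217, 461 and 433 in p47phox-/- and 434, 246 and 265 in WT. Tspan8, a tetraspanin, had 181, 181 and 129 in gp91phox-/-, 131, 151 and 149 in p47phox-/- and 149.99, 51.4 and 73.2 in WT. Ceacam1, an adhesion molecule that immune cells also carry, had 1480.4, 843 and 979 in gp91phox-/-, 801, 325 and 1380.5 in p47phox-/- and 1563, 1135 and 1194 in WT. The genotypes overlapped for all 3, and Ceacam1 and Krt8 had the highest normalized counts among the members.

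Of the transport and brush border genes, Slc26a3, the chloride and bicarbonate exchanger of the colonocyte surface, had 174, 56.7 and 47.4 normalized counts in gp91phox-/- replicates 1, 2 and 3, 0, 0 and 13.3 in p47phox-/- and 46.4, 14.7 and 9.14 in WT. Each gp91phox-/- library was above each of the other 6, and 2 of the 3 p47phox-/- libraries had no read. Its mean was 92.6 ± 70.4 in gp91phox-/-, 4.45 ± 7.7 in p47phox-/- and 23.4 ± 20.1 in WT (SD, n = 3 each). It was higher in gp91phox-/- than in p47phox-/- (log2 fold change 5.02, SE 1.09, limma adjusted p = 0.0127), a size that depends on the pseudocount because of the values at 0 (2.75 with a pseudocount of 10). The call was lost without gp91phox-/- replicate 1 (adjusted p = 0.0740) and in edgeR on recovered reads (adjusted p = 0.0567). Without p47phox-/- replicates 2 and 3 the log2 fold change was 6.30. The 1 p47phox-/- library left is then replicate 1, at 0, so that size depends on the pseudocount. Outside gp91phox-/-, only p47phox-/- replicate 3 and WT replicates 1 and 2 reached 10 normalized counts. In fits that leave out any of these, Slc26a3 passed the filter only through gp91phox-/-, where it is high, and its calls there are no support.

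The carbonic anhydrase Car1 had 548, 309.5 and 319 in gp91phox-/-, 52.9, 247 and 576 in p47phox-/- and 1132, 545 and 516 in WT. Car4, a membrane-bound carbonic anhydrase of colonocytes, had 104, 12.1 and 22.4 in gp91phox-/-, 23.5, 10.6 and 14.3 in p47phox-/- and 37.3, 11.01 and 26.5 in WT. Car1 was highest in WT replicate 1 and lowest in p47phox-/- replicate 1, and neither gene was called in any comparison (limma, adjusted p = 0.222 for Car1 in p47phox-/- against WT). Aqp8, a water channel of colonocytes, reached 62.8 in gp91phox-/- replicate 1, was at most 6.71 in p47phox-/- and at most 5.80 in WT, and did not pass the filter of 10 normalized counts in 3 libraries.

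Of the brush border genes, Vil1, villin, an actin bundler of microvilli, had 220.2, 141 and 115 in gp91phox-/-, 67.1, 0.879 and 85.7 in p47phox-/- and 166, 65.4 and 71.3 in WT. Cdhr2, a protocadherin that links microvilli, had 90.1, 20.5 and 23.3 in gp91phox-/-, 3.36, 0 and 51.4 in p47phox-/- and 54.7, 13.2 and 25.6 in WT. Cdhr5, its partner, had 146, 41.6 and 35.8 in gp91phox-/-, 5.88, 65.9 and 0 in p47phox-/- and 109, 20.6 and 26.5 in WT. In p47phox-/- replicate 2, Vil1 rested on a single read and Cdhr2 had none, while Cdhr5 was above 6 of the other 8 libraries. Vil1 overlaps Usp37 on the opposite strand (up to 2099 normalized counts), and without a stated strand setting their reads cannot be told apart. Guca2a, guanylin, which regulates fluid secretion, had 103, 50.7 and 35.8 in gp91phox-/-, 20.1, 66.8 and 0 in p47phox-/- and 223, 35.2 and 54.9 in WT. Fabp2, a fatty acid binding protein, had 28.2, 4.83 and 31.3 in gp91phox-/-, 0, 22.9 and 27.6 in p47phox-/- and 29.00, 11.01 and 14.6 in WT. Phgr1, a small protein of the gut epithelium, had 60.1, 27.8 and 25.9 in gp91phox-/-, 12.6, 15.8 and 18.1 in p47phox-/- and 34.8, 24.97 and 14.6 in WT. For Phgr1 and Vil1 all gp91phox-/- libraries were above p47phox-/-, and the groups overlapped for the others. Pigr, the receptor that carries dimeric IgA through the epithelium, had 907, 328 and 344 in gp91phox-/-, 260.2, 458 and 398 in p47phox-/- and 440.02, 322 and 207 in WT, with all genotypes overlapping.

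Of the transcription factors, Elf3, an ETS factor of epithelia, had 167, 106 and 150.3 in gp91phox-/-, 41.1, 65.9 and 90.5 in p47phox-/- and 136, 93.3 and 74.1 in WT. Cdx1, a homeobox factor of intestinal identity, had 125, 61.5 and 58.1 in gp91phox-/-, 26.9, 91.4 and 49.5 in p47phox-/- and 99.4, 21.3 and 28.3 in WT. Cdx2, its relative, had 52.8, 41.03 and 46.5 in gp91phox-/-, 46.2, 50.99 and 20.01 in p47phox-/- and 91.98, 53.6 and 32.9 in WT. Elf3 was higher in each gp91phox-/- library than in each p47phox-/- library but was not called (log2 fold change 1.13, limma adjusted p = 0.084). Chga was at 1.79 to 7.24 in gp91phox-/-, at 0 in all 3 p47phox-/- libraries and at 1.66 to 12.8 in WT, too low for a comparison.

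Counted over the list, few members differed between genotypes. Of the 39, 37 passed the filter of 10 normalized counts in 3 libraries, and Fcgbp, Tff3 and Cldn4 passed it only through gp91phox-/-. Of the 34 tested without the 3 singled out, Cdh1, Krt20 and Slc26a3 were called higher and 0 lower in gp91phox-/- against p47phox-/-, where 9.93% of all 14404 genes tested were called, 3.97% higher and 5.96% lower. The members' 8.82% was close to that background. In gp91phox-/- against WT, limma called 0 of the 34, where 7.05% of all genes were called, 2.53% higher and 4.53% lower. In p47phox-/- against WT, limma called 0 of the 34, where 1.12% of all genes were called, 0.625% higher and 0.5% lower. On recovered reads, edgeR called 2 members in gp91phox-/- against p47phox-/- (9.13% of all genes), 0 in gp91phox-/- against WT (6.76% of all) and 0 in p47phox-/- against WT (0.923% of all). DESeq2 called 5 in gp91phox-/- against p47phox-/- (15.8% of all genes), Tff3 and Muc13 higher in gp91phox-/- against WT (12.3% of all) and Krt20 lower in p47phox-/- against WT (4.71% of all). At an unadjusted p under 0.05, limma had 7 higher and 0 lower of the 34 in gp91phox-/- against p47phox-/- (20.6%, against 25.97% of all genes tested). It had 8 higher and 1 lower of the 34 in gp91phox-/- against WT, where 21.7% of all genes tested passed that mark. It had 0 higher and 5 lower in p47phox-/- against WT (Car1, Cdh1, Guca2a, Krt20 and Slc26a3), where 15.02% of all passed it. Cldn4 is among the 7 higher members and Tff3 among the 8. As both passed the filter only through gp91phox-/-, they are no support in these counts.

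In gp91phox-/- against p47phox-/-, 32 of the 34 had a log2 fold change above 0, with a median of 0.98 against 0.02 over all genes tested. In gp91phox-/- against WT, 28 of the 34 were above 0, with a median of 0.60 against 0.01 over all. In p47phox-/- against WT, 13 were above and 21 below 0, with a median of -0.55 against -0.02 over all. The 3 comparisons share libraries in pairs and the members share their cell type, so these counts are not independent of each other. Groups did not overlap for 7 members in gp91phox-/- against p47phox-/-, all higher (20.6%, against 13.6% of all genes tested). They did not overlap for 9 higher members (26.5%, against 15.1% of all) and 1 lower member (2.94%, against 18.2%) in gp91phox-/- against WT. In p47phox-/- against WT they did not overlap for 0 higher members (against 9.25% of all) and 2 lower members, Hepacam2 and Cdh1 (5.88%, against 8.49%). Cldn4 is among the 7 and the 9 higher members, and Tff3 among the 9. Both passed the filter only through gp91phox-/-, where they are high. They are therefore no support in these counts, or in the counts above 0 and the medians for gp91phox-/-.

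**Figure D4:**
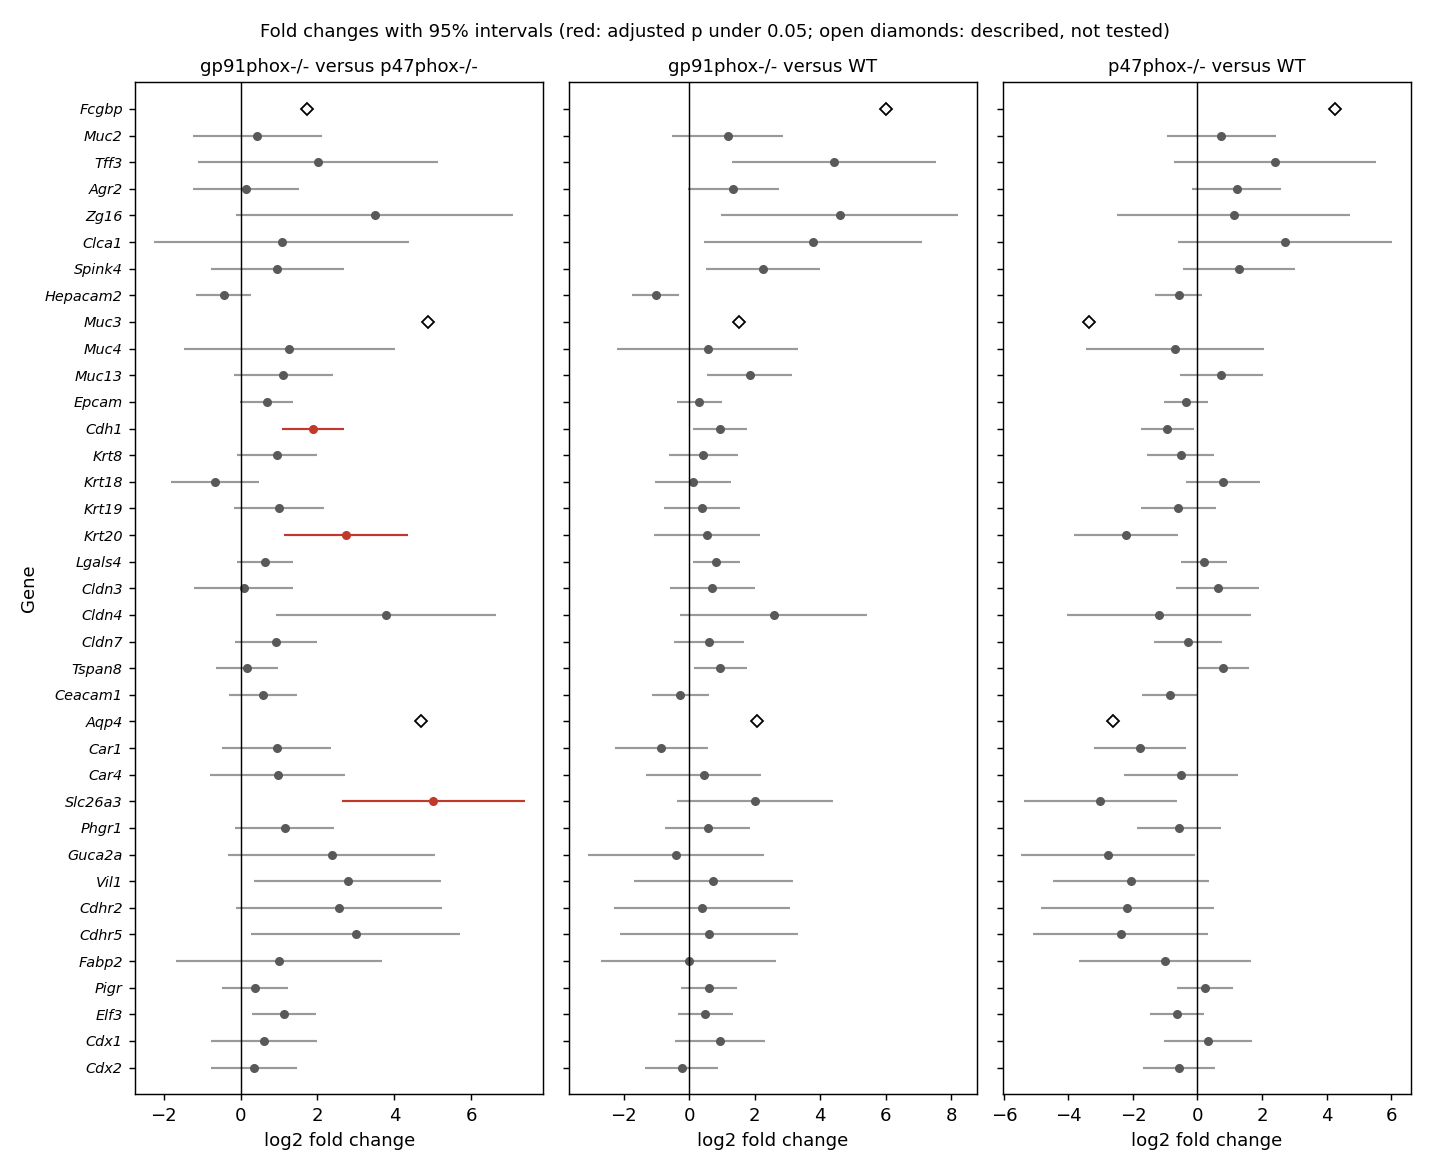
Log2 fold changes of the 37 members that passed the filter, by comparison, with 95% intervals from limma for the 34 tested, and open diamonds without an interval for Fcgbp, Muc3 and Aqp4. Cdh1, Krt20 and Slc26a3 are called in gp91phox-/- against p47phox-/- (2.75 for Krt20), and the intervals of most other members include 0.

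The spread within a genotype was wide for all of these genes. The SD of log2 values between libraries of a genotype, pooled over the 3 genotypes, had a median of 1.07 over the 37 members that passed the filter and 0.31 over all genes tested, and each of the 37 was above that figure for all genes. It exceeded 2 for 7 members, with the largest value in Zg16 (2.74), followed by Clca1 (2.56) and Fcgbp (2.27). The smallest were in Epcam (0.40), Cdh1 (0.41), Elf3 (0.46), Tspan8 (0.48) and Hepacam2 (0.48).

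Fcgbp and Muc3 followed different members across the 9 libraries. Likeness was measured as the Pearson r of log2(normalized count + 1) over the 9 libraries, which share genotype and detection, and is given as a description. Among members, Fcgbp was most like Tff3 (0.83), Zg16 (0.77), Muc13 (0.77), Lgals4 (0.74) and Clca1 (0.73). Muc3 was most like the brush border gene Cdhr5 (0.96), Aqp4 (0.92) and Guca2a (0.91), and Aqp4 most like Cdh1 (0.93), Muc3 (0.92) and Cdhr5 (0.88). Fcgbp had a likeness of -0.14 to Muc3 and 0.06 to Aqp4. Among all 12940 named genes compared, the 5 most like Fcgbp were Dctpp1 (0.93), Kdelr2 (0.93), Cmc1 (0.92), Mmgt2 (0.92) and Sesn1 (0.92). For Muc3 they were Naa60 (0.98), Zdhhc23 (0.97), Cdhr5 (0.96), Gpr180 (0.96) and Tmem70 (0.95), and for Aqp4 Tmem38b (0.93), Irf2 (0.93), Cdh1 (0.93), Kalrn (0.93) and Gpr180 (0.93).

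A second list of 93 further epithelial genes was examined, of which 59 passed the filter. In gp91phox-/- against p47phox-/-, Slc9a3, Saa1 and Vill were called higher and 0 lower (5.08%, against 9.93% of all genes), with a median log2 fold change of 0.88 against 0.02 over all. Slc9a3, a sodium and proton exchanger of colonocytes, had 59.1, 19.9 and 18.8 in gp91phox-/-, 0, 0 and 0 in p47phox-/- and 24.9, 5.14 and 2.74 in WT. Slc9a3 had 119 reads over the 3 gp91phox-/- libraries and 0 in p47phox-/- (limma adjusted p = 0.0169). Taking 3 reads in the whole p47phox-/- group as the limit, for counting error only, it was at least 36.6-fold higher. That limit does not cover the low detection in p47phox-/- replicates 2 and 3. Saa1, an acute-phase protein that gut epithelium makes, had 75.5, 36.2 and 41.1 in gp91phox-/-, 5.04, 0 and 0 in p47phox-/- and 9.12, 28.6 and 0 in WT (log2 fold change 4.76, adjusted p = 0.0365). Vill, a villin-like protein, had 1052, 974 and 1093 in gp91phox-/-, 473, 842 and 532 in p47phox-/- and 1323, 1015 and 1039.7 in WT (log2 fold change 0.80, adjusted p = 0.0302). Slc9a3 and Saa1 passed the filter only through gp91phox-/-, where they are high, so their calls are no support. Some of the 59 that are not named here also passed it only that way, so the median of 0.88 is no support either. All 3 calls were lost without any 1 of the gp91phox-/- libraries (adjusted p up to 0.146). Saa1 was lost in 11 of 19 alternatives, among them a pseudocount of 0.5, no filter, no trend, edgeR and the loss of p47phox-/- replicate 2, p47phox-/- replicate 3 or WT replicate 1 (adjusted p up to 0.342). Vill was lost in 7 of 20, also with no trend, with only the genotypes compared and without p47phox-/- replicate 1 or 3 (adjusted p up to 0.0973).

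Against WT, Vdr was the further gene called, lower in both knockouts, which share the WT libraries. Vdr, the vitamin D receptor, which macrophages also express, had 985, 1322 and 1228 in gp91phox-/-, 1011, 1185 and 1329 in p47phox-/- and 2173, 2102 and 2422 in WT. Each knockout library was below each WT library. The log2 fold change was -0.93 in gp91phox-/- (limma adjusted p = 0.00335) and -0.93 in p47phox-/- (adjusted p = 0.015). The p47phox-/- call was lost without WT replicate 3, with no trend and without p47phox-/- replicates 2 and 3 (adjusted p up to 0.0876). The median log2 fold change of the 59 was 0.31 in gp91phox-/- against WT and -0.67 in p47phox-/- against WT, beside 0.01 and -0.02 over all genes. As some of the 59 passed the filter only through gp91phox-/-, the median of 0.31 is no support. The other further genes with the highest means were not called. Spint1, a protease inhibitor of epithelial membranes, had 7699.5, 7242 and 6681 in gp91phox-/-, 3776, 6015 and 3433 in p47phox-/- and 9163, 4929 and 8469.9 in WT. Its values exceeded those of every member (at most 1563, for Ceacam1), and Vill exceeded Epcam (at most 368) in every library. Which cells the reads of Spint1 and Vill came from was not tested. Slc12a2, an ion cotransporter, had 559.6, 633 and 434 in gp91phox-/-, 656, 382 and 275 in p47phox-/- and 358, 521 and 482 in WT. Lypd8, a secreted protein that keeps flagellated bacteria from the epithelium, had 1439, 479.7 and 527 in gp91phox-/-, 58.8, 351 and 273 in p47phox-/- and 595, 194 and 208 in WT, and p47phox-/- replicate 1 was again the lowest library. Tff2, Muc6 and Neurod1 were listed at 0 in all 9 libraries, as were Cldn2 and Nox1 on chromosome X.

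Markers of non-epithelial cell types also differed between the genotypes, and their part in the epithelial values was not tested. Over all genes tested, 5.96% were called lower in gp91phox-/- than in p47phox-/- and 4.53% lower in gp91phox-/- than in WT. Called higher than in WT were 2.53% in gp91phox-/- and 0.625% in p47phox-/-. The 14 B and plasma cell markers summed to 2055 to 3745 in gp91phox-/-, 20023 to 27222 in p47phox-/- and 20379 to 46479 in WT, and 12 of 14 were called lower in gp91phox-/- than in p47phox-/-, and 12 of 14 lower than in WT. The 14 fibroblast and smooth muscle markers summed to 10799 to 13007 in gp91phox-/-, 13072 to 20025 in p47phox-/- and 7587 to 10150.2 in WT, with 3 called lower in gp91phox-/- than in p47phox-/-, and 2 called higher in gp91phox-/- and 3 in p47phox-/- against WT. The 11 endothelial markers summed to 3069.9 to 5697 in gp91phox-/-, 4436 to 10601 in p47phox-/- and 3401 to 6627 in WT. The 13 T and innate lymphoid markers summed to 11227 to 15129.7 in gp91phox-/-, 13336 to 14879 in p47phox-/- and 9246 to 15523 in WT, and of 9 tested, 3 were called lower in gp91phox-/- than in p47phox-/- and 2 lower than in WT. The 11 neutrophil, mast cell and eosinophil markers summed to 292 to 477 in gp91phox-/-, 373 to 476 in p47phox-/- and 327 to 533 in WT. Of the neutrophil, mast cell and eosinophil markers, Fcer1a and Epx were at 0 in all libraries.

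Gene models limit some of these values. Of the 39 members, 13 overlap another annotated gene in GENCODE vM21, and the sources used here do not state whether the counting used strand.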

How the data were processed

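RNA of sorted colon macrophages was sequenced in 9 libraries, 3 per genotype. Per the labels' protocols, reads were demultiplexed with bcl2fastq 2.19, trimmed with Cutadapt, mapped to mm10 with STAR 2.5.2b and counted with featureCounts, and the submitters' processing notes also name DESeq2. The deposited signal is a normalized count, the reads of a gene divided by a size factor for its library. All values in each library were whole multiples of its smallest value (100% within a tolerance of 0.01), so whole reads were recovered for count tests and depth.

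Groups came from the genotype labels. limma 3.58.1 (R 4.3.3) was fitted to log2(normalized count + 1) over all 9 libraries with a mean-variance trend, on the 14404 genes that reached 10 normalized counts in 3 or more libraries. A gene was called at a Benjamini-Hochberg adjusted p under 0.05 over all genes tested. Fold changes on this scale understate those of low genes. The script was tested on simulated data. Alternatives were other pseudocounts, filters and scaling, count tests on the recovered reads (DESeq2 1.42.0, edgeR 4.0.16), a replicate block, and libraries left out. The members and lists were chosen with earlier results of these data known. Named genes were all members, further epithelial genes that were called or among the 5 with the highest mean, and the 5 genes most like each of Fcgbp, Muc3 and Aqp4. The labels do not say that libraries came from separate animals, so p-values measure only the spread between these libraries. Start regions came from RefSeq (GRCm38.p6).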

Additional observations from a re-analysis of the deposited data

Results flagged for a closer look

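For some genes the fitted log2 fold changes against WT differed between the knockouts. The test of that difference equals the gp91phox-/- against p47phox-/- comparison in limma, because WT cancels. No gene listed here was called against WT in limma in either knockout. Of their calls between the knockouts, only that of Cdh1 held without each library in turn. The difference in log2 fold change (gp91phox-/- effect minus p47phox-/- effect) was 5.02 for Slc26a3, 2.75 for Krt20 and 1.88 for Cdh1 among the members. Among the further epithelial genes it was 0.80 for Vill. For Slc9a3 and Saa1 the fitted values were 4.87 and 4.76 with a pseudocount of 1, and both genes passed the filter only through gp91phox-/-. Slc9a3 had 0 reads in p47phox-/-, so its fitted value depends on the pseudocount and is no bound. Taking 3 reads over that group gives at least 5.19 on the log2 scale, for counting error only. Low detection in p47phox-/- replicates 2 and 3 is not covered by it. Cdh1 also had every gp91phox-/- library above WT and every p47phox-/- library below it, with the lowest gp91phox-/- library at 132.7 and the highest WT library at 132.6 normalized counts.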

How the results depend on the processing

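No member or further gene named here changed direction past the threshold under any alternative run. With limma on all 9 libraries, 3 members were called in gp91phox-/- against p47phox-/-, 0 in gp91phox-/- against WT and 0 in p47phox-/- against WT. DESeq2 called 5, 2 and 1 in these comparisons, where it called 15.8, 12.3 and 4.71% of all genes. Fitting only gp91phox-/- and WT gave 2 in gp91phox-/- against WT (11.2% of all genes), Tff3 and Zg16. Both passed the filter in that fit only through gp91phox-/-, where they are high, so their calls are no support. The same holds for Tff3 in DESeq2. Leaving out 1 library at a time gave 1 to 5 members in gp91phox-/- against p47phox-/-. There were 1 without gp91phox-/- replicate 1 (6.71% of all genes called) and 5 without p47phox-/- replicate 3 (7.19%), which adds Cdhr2 and Zg16. In the fit without p47phox-/- replicate 3, Zg16 and Slc26a3 passed the filter only through gp91phox-/-, where they are high, so their calls are no support. Leaving out 1 library gave 0 to 2 members in gp91phox-/- against WT and 0 in p47phox-/- against WT. The 2 were Muc13 and Tspan8, without WT replicate 1 (4.46% of all genes called). Of the further genes, 3, 1 and 1 were called, beside 9.93, 7.05 and 1.12% of all genes. In gp91phox-/- against p47phox-/- the count was 6 with a pseudocount of 10 (10.3% of all), 5 with no filter (5.52%), 1 with a mean of at least 50 (13.2%) and 9 in DESeq2 (15.8%). With 1 library left out it was 0 to 5, where 5.31 to 11.7% of all genes were called. In gp91phox-/- against WT it was 3 with a pseudocount of 10, with no filter, with no trend, with only those genotypes and in DESeq2 (3.96 to 12.3% of all genes called). With 1 library left out it was 1 to 3, where 3.6 to 11% of all genes were called. In p47phox-/- against WT it was 2 with no filter (0.599% of all) and with a mean of at least 50 (1.89%), and 5 in DESeq2 (4.71%). With 1 library left out it was 0 to 2, where 0.338 to 1.58% of all genes were called. The causes were not tested. Replicate numbers are shared between genotypes, but same-numbered libraries did not deviate together (correlations -0.040 to 0.076), and a replicate block changed none of the 3 member calls (adjusted p = 0.0118 for Cdh1, 0.0422 for Krt20 and 0.0198 for Slc26a3 in limma). Members near 0 rest on a few reads, where depth limits any comparison.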
